A study of Mus musculus with 6 samples.

Results

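Spi1 and 55 other genes around it on mouse chromosome 2 were followed gene by gene in leukaemic bone marrow. The members are a list of 56 symbols, and each was taken from probe sets that carry exactly 1 symbol, with the brightest probe set used where a gene had several. All 56 of the 56 members were measured, of 19938 genes in all. The genes were chosen by their position, and the region was selected on earlier readings of these arrays, in which HoxA9AA/Meis1 replicate 1 was low over a stretch of chromosome 2. The values on that array are therefore given as a description, with no test.

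The arrays came from 6 mice, 3 in each of 2 groups. Donor LSK cells carrying CD45.2, the marrow fraction that holds stem and early progenitor cells, were transduced with Meis1 together with HoxA9wt-GFP or with HoxA9AA-GFP, and were transplanted into CD45.1 recipients after lethal irradiation. Marrow RNA was taken when disease set in, and each mouse gave 1 Affymetrix whole-transcript array. Every mouse of both groups received Meis1, so Meis1 does not separate them, and what the AA form changes in HoxA9 is not spelled out in the labels. There was no group without an introduced HOX gene. The labels mention no sort of the marrow, so recipient cells may be present. All values are log2 intensities, so a step of 1 is a 2-fold change. In RNA from whole marrow, fewer cells of a type and less RNA per cell cannot be told apart. The DNA copy number of the region was not measured.

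Spi1 encodes PU.1, an ETS-family transcription factor that binds DNA around a GGAA core and is required for macrophage and B cell development. Its dose sets myeloid fate, and mice with little PU.1 develop myeloid leukaemia. In radiation-induced myeloid leukaemia of the mouse, 1 copy of the chromosome 2 region around Spi1 is often lost. The genes beside it have unrelated functions, such as translation, autophagy, adhesion and mitochondrial respiration, and share little but their position.

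Spi1 itself changed little from array to array. It measured 9.35, 9.30 and 9.39 in the HoxA9wt/Meis1 mice and 9.32, 9.40 and 9.39 in the HoxA9AA/Meis1 mice. The groups overlapped, with means of 9.35 ± 0.05 and 9.37 ± 0.04 (SD, n = 3 each). The limma difference was 0.02 ± 0.08 (SE), with an adjusted p of 0.984. Its 95% interval ran from −0.17 to 0.21, so a 2-fold group difference lies outside it. Without HoxA9AA/Meis1 replicate 1 the limma difference was 0.05 ± 0.08.

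The genes around Spi1 did not follow it on the array of HoxA9AA/Meis1 replicate 1. To compare the members, the mean of the 3 HoxA9wt/Meis1 arrays was subtracted from each gene on each array, and members with that mean at 8 or more were kept apart from those below it. A mean of 8 or more was found for 32 members, and 24 lay below it. Over these 32 members the median on replicate 1 was −0.72, which is 1.65-fold lower than the HoxA9wt/Meis1 mean. It was −0.06 on replicate 2 and −0.005 on replicate 3 of the same group. On the HoxA9wt/Meis1 arrays the same median lay between −0.025 and 0.005.

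**Figure D1:**
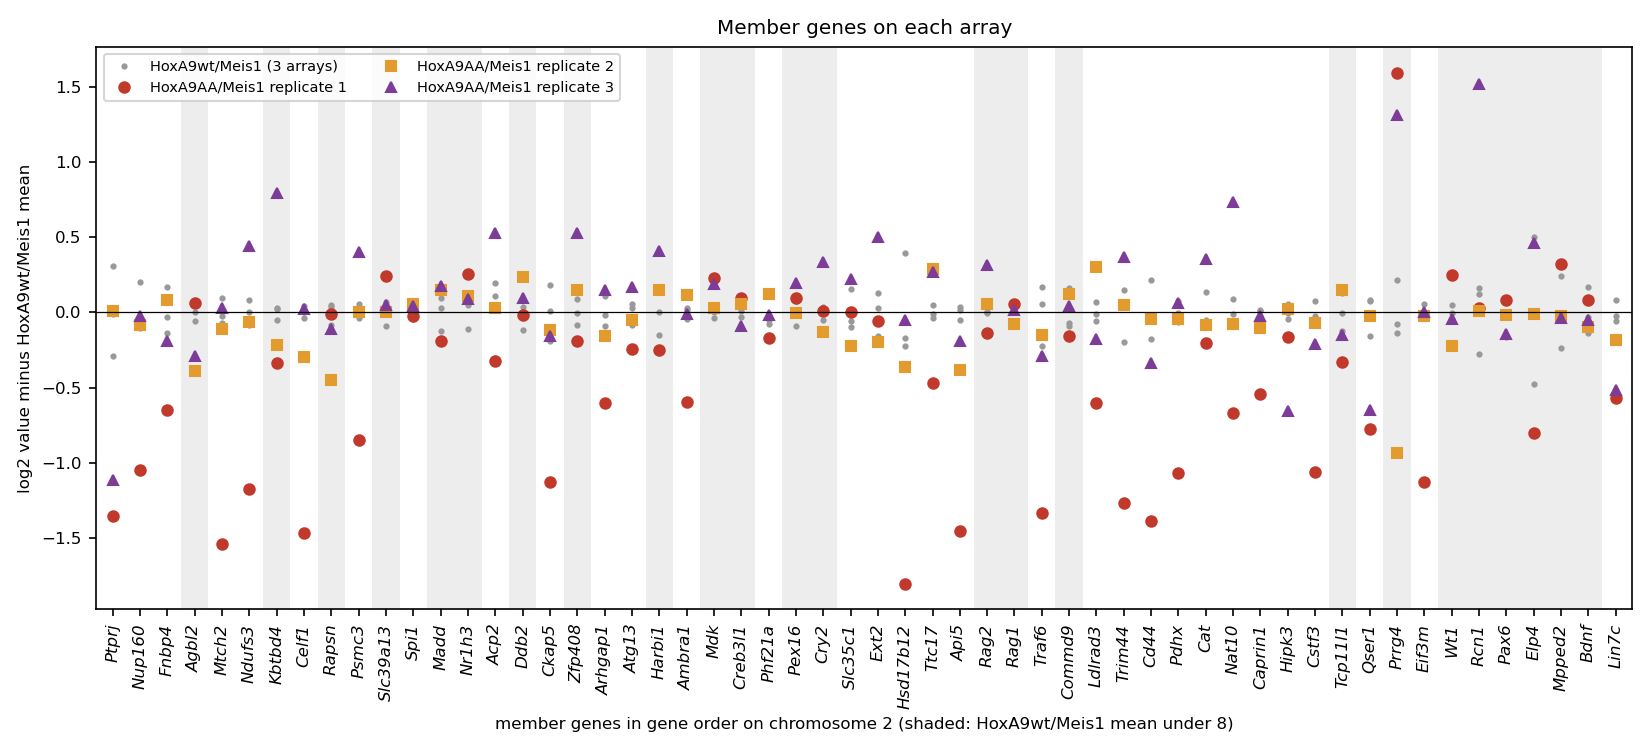
All 56 members in gene order along chromosome 2, from Ptprj to Lin7c, each plotted as its log2 value minus the HoxA9wt/Meis1 mean on the 6 arrays, with members under 8 shaded. On HoxA9AA/Meis1 replicate 1 most unshaded members sit below 0, with a median of −0.72, while Spi1 sits at −0.03.

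The shift on replicate 1 was carried by most of these 32 members. On that array 31 of them lay below the HoxA9wt/Meis1 mean and 23 lay more than 0.5 below it, where 25.1% of all 5759 genes of this level did. Likewise 14 lay more than 1 below it (7.87% of all genes of this level), and 29 lay below all 3 HoxA9wt/Meis1 arrays (51% of all genes of this level). None of the 32 lay above all 3 HoxA9wt/Meis1 arrays, against a background of 26.6%, and none more than 0.5 above their mean, against 8.47%. Only Spi1, Slc35c1 and Ext2 stayed within the range of the HoxA9wt/Meis1 arrays. Nothing is read from these shares, since this array guided the choice of the members. The whole array also ran somewhat low among bright genes, with a median of −0.14 over all genes of this level and −0.13 over those of other chromosomes. After each array was centred on the bright genes of other chromosomes, an alternative added after the data were seen, the members' median on replicate 1 was −0.59.

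The other two HoxA9AA/Meis1 arrays gave a different picture. On replicate 2 none of the 32 members lay more than 0.5 from the HoxA9wt/Meis1 mean, and the background was 1.06% below, 1.39% above and 0.243% more than 1 below. There, 10 lay below all 3 HoxA9wt/Meis1 arrays (background 19%) and 4 above (26.4%). On replicate 3, 4 lay more than 0.5 below the mean (12%) and 2 more than 0.5 above it (15.7%). Of the members on that array, 10 lay below all 3 HoxA9wt/Meis1 arrays (29.3%) and 11 above (47%). Bright genes ran somewhat high there, with a median of 0.10 over all genes of this level and over those of other chromosomes. Single members still ranged widely on replicate 3, from −1.11 for Ptprj to 0.73 for Nat10, and Ptprj was the only member more than 1 below the mean (4.62%).

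The 8 members lowest on replicate 1 came from several functions. Hsd17b12, an enzyme of fatty acid elongation, measured 9.61, 9.04 and 8.99 in HoxA9wt/Meis1 and 7.41, 8.85 and 9.16 in HoxA9AA/Meis1. Replicate 1 was 3.49-fold under the HoxA9wt/Meis1 mean, replicate 2 lay a little under the lowest HoxA9wt/Meis1 array and replicate 3 within their range. Mtch2, a protein of the outer mitochondrial membrane, measured 9.57, 9.45 and 9.40 against 7.93, 9.36 and 9.50, which put replicate 1 2.91-fold lower. A further Mtch2 probe set read 7.73 on that array against a HoxA9wt/Meis1 mean of 9.28. For both genes replicate 1 was by far the lowest array.

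Members that act on RNA and in translation were low throughout on replicate 1. All 7 with a HoxA9wt/Meis1 mean of 8 or more lay more than 0.5 below it, with a median of −1.05. Celf1, a regulator of splicing and mRNA decay, measured 8.98, 9.06 and 9.02 in HoxA9wt/Meis1 and 7.55, 8.72 and 9.04 in HoxA9AA/Meis1, so that replicate 1 was 2.77-fold lower. Its other probe set lay 0.55 lower on that array, so the 2 probe sets gave the same sign and different sizes. Eif3m, a subunit of the translation initiation factor eIF3, measured 11.30, 11.32 and 11.39 against 10.21, 11.31 and 11.34. Nup160, of the nuclear pore, lay at −1.05 and Cstf3, of the 3′ end cleavage machinery, at −1.06. The remaining members of this kind were Nat10, an RNA acetyltransferase, at −0.67, Fnbp4 at −0.65 and Caprin1, an RNA-binding protein, at −0.54.

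Surface and signalling members were also mostly low on replicate 1, at a median of −0.97 over 6 genes. Cd44, the hyaluronan receptor, measured 10.68, 10.29 and 10.43 in HoxA9wt/Meis1 and 9.08, 10.42 and 10.13 in HoxA9AA/Meis1. Replicate 1 was 2.61-fold lower than the HoxA9wt/Meis1 mean, and replicate 3 was below all HoxA9wt/Meis1 arrays by a small margin. Traf6, the ubiquitin ligase of Toll-like and interleukin-1 receptor signalling, measured 8.96, 8.68 and 9.07 against 7.57, 8.75 and 8.61, with replicate 1 2.52-fold lower. Ptprj, the receptor tyrosine phosphatase CD148, measured 11.81, 11.21 and 11.49 against 10.15, 11.51 and 10.39. It was low on 2 arrays, at −1.35 on replicate 1 and −1.11 on replicate 3, and its other probe set gave −1.44 and −1.39. Its limma group difference was −0.82 ± 0.36 (SE), with an adjusted p of 0.731, so it did not pass. The exception on replicate 1 was Hipk3, a protein kinase, which measured 9.84, 9.90 and 9.80 against 9.68, 9.87 and 9.19, so that replicate 3 and not replicate 1 was its lowest array.

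Members of protein turnover, autophagy, cell division and survival had a median of −0.99 on replicate 1 over 6 genes. Api5, an inhibitor of apoptosis, measured 10.26, 10.35 and 10.33 in HoxA9wt/Meis1 and 8.86, 9.93 and 10.12 in HoxA9AA/Meis1. All 3 HoxA9AA/Meis1 values were below the HoxA9wt/Meis1 values, at −1.45, −0.38 and −0.19. Trim44, a tripartite-motif protein, measured 10.02, 9.77 and 10.12 against 8.70, 10.02 and 10.34, with only replicate 1 low. Ckap5, a microtubule polymerase, lay at −1.13 on replicate 1, Psmc3, an ATPase subunit of the proteasome, at −0.85, and the autophagy genes Ambra1 and Atg13 at −0.59 and −0.24.

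Members of mitochondria, transport and metabolism were more mixed on replicate 1, with a median of −0.70 over 8 genes and 4 of them more than 0.5 below the HoxA9wt/Meis1 mean. The low ones were Hsd17b12, Mtch2, Ndufs3, a subunit of respiratory complex I, at −1.18 and Pdhx, of the pyruvate dehydrogenase complex, at −1.07. Slc35c1, the GDP-fucose transporter of the Golgi, measured 8.48, 8.73 and 8.52 in HoxA9wt/Meis1 and 8.58, 8.35 and 8.80 in HoxA9AA/Meis1, and its replicate 1 value equalled the HoxA9wt/Meis1 mean. Ext2, a heparan sulphate polymerase, measured 8.91, 8.62 and 8.81 against 8.72, 8.58 and 9.28, with replicate 3 the highest. Cat, which encodes catalase, lay at −0.20 on replicate 1.

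Of the 3 members of transcription and chromatin at 8 or more, Qser1 lay at −0.78 on replicate 1, Phf21a at −0.17 and Spi1 at −0.03. Phf21a, a subunit of the histone demethylase complex of LSD1, measured 8.22, 8.25 and 8.43 against 8.13, 8.42 and 8.28, with replicate 1 just below the lowest HoxA9wt/Meis1 array. Qser1, which guards developmental genes against DNA methylation, measured 9.03, 9.27 and 9.26 in HoxA9wt/Meis1 and 8.41, 9.16 and 8.54 in HoxA9AA/Meis1, low on replicates 1 and 3. The remaining bright members, Ttc17 and Lin7c, lay at −0.47 and −0.57 on replicate 1. A dimmer Ttc17 probe set, with a HoxA9wt/Meis1 mean of 7.79, lay at 0.08 there and did not share the low reading.

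**Figure D2:**
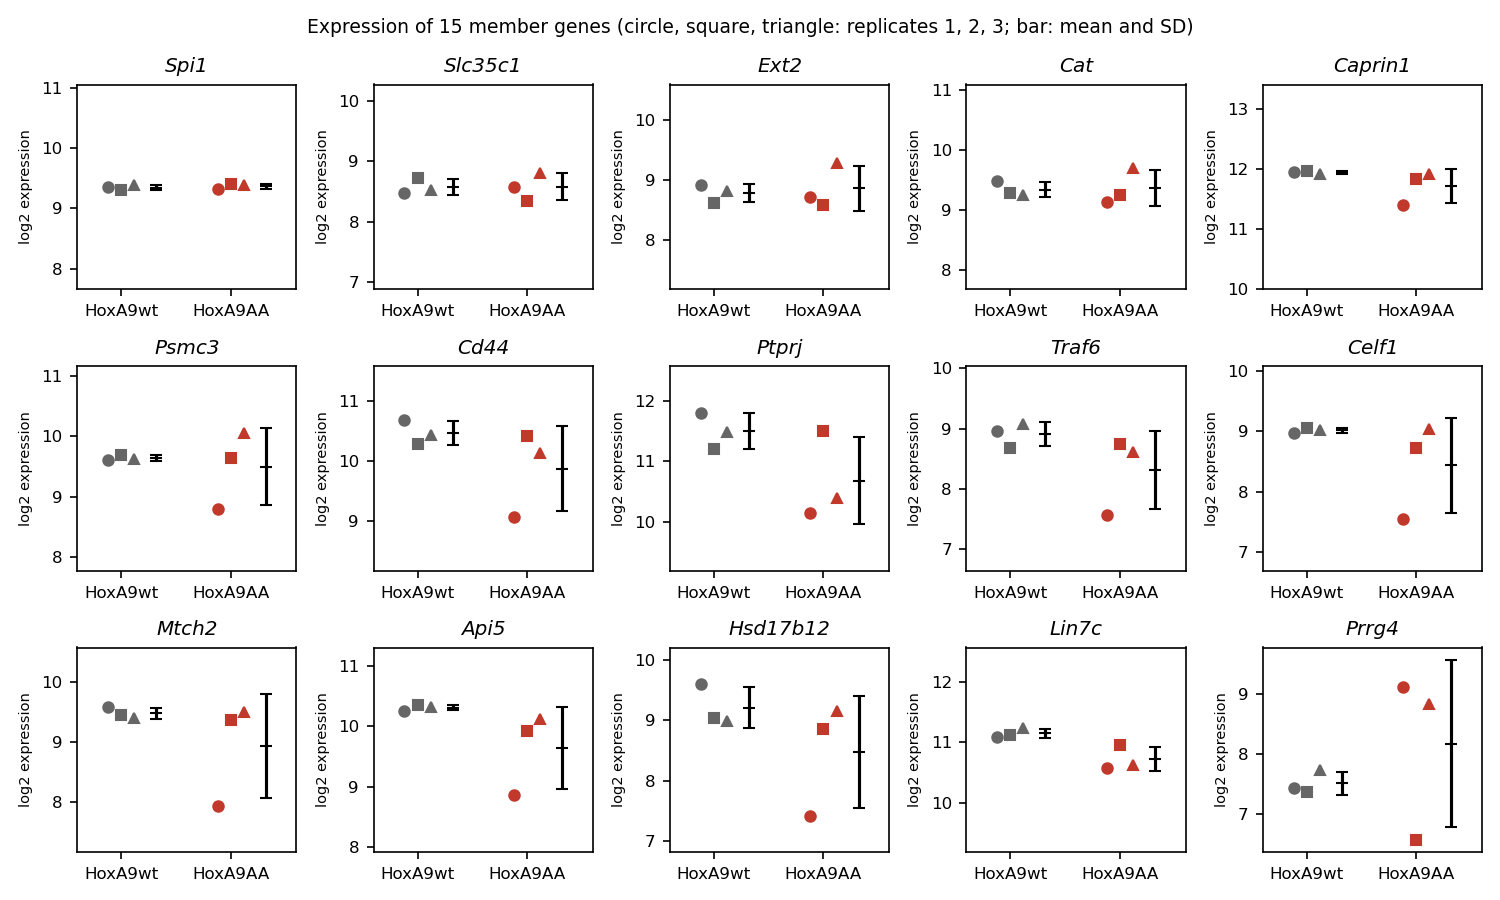
Log2 values of 15 members on the 6 arrays, 1 point per mouse (circle, square and triangle for replicates 1, 2 and 3), with a bar for each group's mean and SD (n = 3). Spi1 lies between 9.30 and 9.40 on all 6 arrays, while the lowest point of Hsd17b12, Mtch2 and Celf1 is the circle of HoxA9AA/Meis1.

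The size of the shift on replicate 1 went with the level of the gene. The 8 members with a HoxA9wt/Meis1 mean of 10 or more had a median of −1.09, and each lay more than 0.5 below that mean. The 13 members between 9 and 10 had a median of −0.85 and the 11 between 8 and 9 a median of −0.59. Below 8 no such shift was seen. The medians were 0.02 for the 18 members between 6 and 8 and 0.07 for the 6 under 6. The median of all probe sets was 6.81, and how far a drop could show at such low levels was not tested. Bright genes of other chromosomes were also lower than dim ones, by less, with medians of −0.25, −0.19, −0.02, 0.11 and 0.03 in these 5 ranges.

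**Figure D3:**
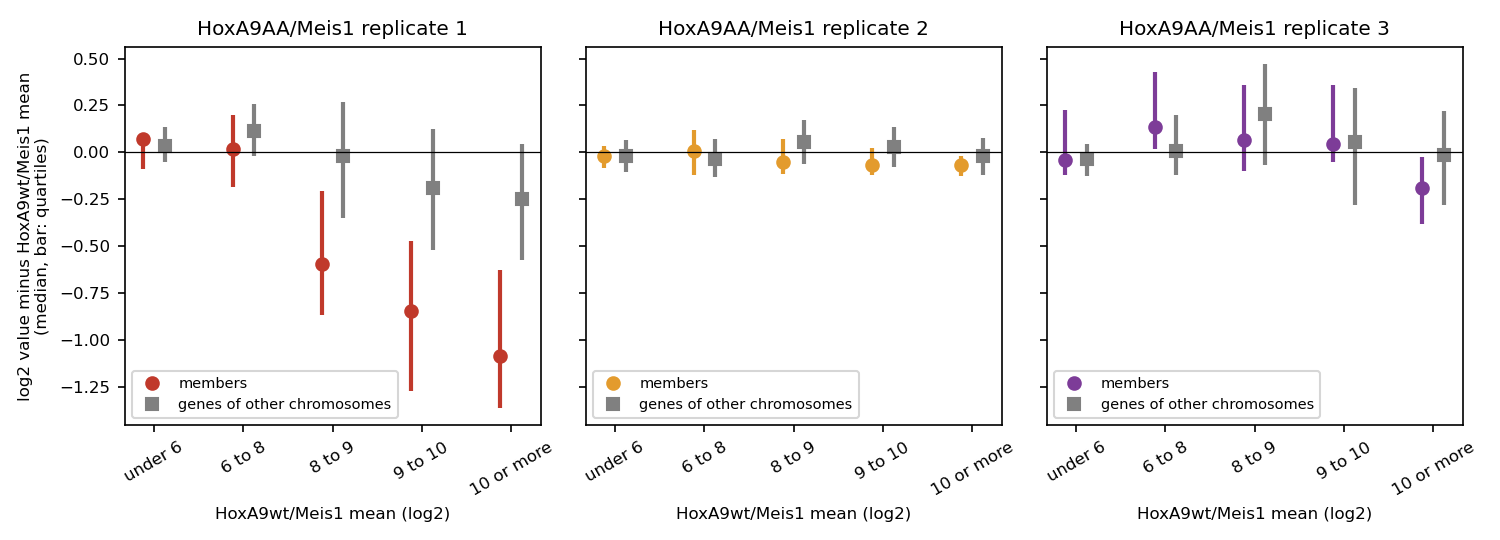
Median log2 value minus the HoxA9wt/Meis1 mean (vertical axis, bars from lower to upper quartile) in 5 ranges of that mean, for the members and for genes of other chromosomes on each HoxA9AA/Meis1 array. On replicate 1 the members at 10 or more have a median of −1.09 and those under 6 a median of 0.07.

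The 24 members under 8 gave medians of 0.04, −0.0017 and 0.09 on HoxA9AA/Meis1 replicates 1, 2 and 3. On replicate 1, 1 of them lay more than 0.5 below the HoxA9wt/Meis1 mean (2.86% of all genes under 8) and 1 more than 0.5 above it (5.66%). On that array 8 lay below all 3 HoxA9wt/Meis1 arrays (16.4%) and 9 above (45.8%). The counts were 7 below (29.4%) and 7 above (19.6%) on replicate 2, and 4 below (29.3%) and 12 above (27.5%) on replicate 3. Elp4, of the Elongator complex that modifies transfer RNA, was the low one, at 7.67, 6.69 and 7.15 in HoxA9wt/Meis1 and 6.37, 7.16 and 7.63 in HoxA9AA/Meis1. Its HoxA9wt/Meis1 arrays spread by more than the distance of replicate 1 from their mean. The other Elp4 probe set, with a HoxA9wt/Meis1 mean of 6.48, lay at −0.12 on replicate 1 and −0.40 on replicate 3. The probe set used lay at −0.80 and 0.46 there, so the 2 differed in size and, on replicate 3, in sign. Prrg4, a transmembrane Gla protein, was the high one, at 7.44, 7.38 and 7.73 against 9.11, 6.58 and 8.83. It was high on replicates 1 and 3 and low on replicate 2. Rag1 and Rag2, the recombinase genes of lymphocytes, had HoxA9wt/Meis1 means of 6.07 and 4.39. The median of 1015 olfactory receptor genes, which marrow is not known to use, was 4.80 to 4.89 on the 6 arrays, so Rag2 lay under that level.

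Other members under 8 moved little on replicate 1. Mpped2 and Nr1h3, the oxysterol receptor LXR-alpha, lay at 0.32 and 0.26, Tcp11l1 at −0.33 and Kbtbd4 at −0.34. The neurotrophin gene Bdnf and the developmental regulators Pax6 and Wt1 had HoxA9wt/Meis1 means of 5.96, 5.43 and 6.81 and lay at 0.08, 0.08 and 0.25. The zinc transporter gene Slc39a13 and Madd, the members on either side of Spi1, lay at 0.24 and −0.19. The growth factor gene Mdk, Creb3l1, the peroxisome gene Pex16, the clock gene Cry2, the DNA repair gene Ddb2, Rapsn and Commd9 lay between −0.16 and 0.23 on replicate 1. On replicate 3, 4 members under 8 lay more than 0.5 above the mean (6.26%), namely Prrg4 at 1.31, Rcn1 at 1.52, Kbtbd4 at 0.79 and Zfp408 at 0.53. Rcn1, a calcium-binding protein of the endoplasmic reticulum, measured 8.01, 7.57 and 7.97 in HoxA9wt/Meis1 and 7.88, 7.86 and 9.37 in HoxA9AA/Meis1, with replicate 3 standing apart. On replicate 2, Prrg4 was the only member more than 0.5 below the mean (0.705%), and none lay more than 0.5 above it (1.21%). On replicate 3 none lay more than 0.5 below the mean (2.83%).

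At the threshold itself, Acp2 and Pdhx lay just above 8, with HoxA9wt/Meis1 means of 8.02 and 8.21, and Rcn1 and Kbtbd4 just below it, with 7.85 and 7.82. Acp2, the lysosomal acid phosphatase, measured 8.22, 7.72 and 8.13 against 7.70, 8.05 and 8.55. Pdhx measured 8.20, 8.28 and 8.14 against 7.14, 8.16 and 8.27. Kbtbd4, a ubiquitin ligase adaptor, measured 7.77, 7.85 and 7.84 against 7.48, 7.60 and 8.61.

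In gene order the low members lay on both sides of Spi1. Before it, Ndufs3 lay at −1.18, the non-member Ptpmt1 at −0.63, Celf1 at −1.47 and Psmc3 at −0.85 on replicate 1. After it, Acp2 lay at −0.32, Ckap5 at −1.13, Arhgap1 at −0.60 and Atg13 at −0.24. These are the 4 genes at 8 or more on each side, and Spi1 at −0.03 stood above all 8. Taken in runs of 8 bright members along the chromosome, the median on replicate 1 was −1.11 from Ptprj to Spi1, −0.28 from Acp2 to Ext2, −1.30 from Hsd17b12 to Pdhx and −0.62 from Cat to Lin7c. The run after Spi1 was thus the least low of the 4, and it ends with Slc35c1 and Ext2. Most of its genes were dimmer, with Acp2, Atg13, Ambra1, Phf21a, Slc35c1 and Ext2 at HoxA9wt/Meis1 means between 8 and 9. All genes from Ptprj to Spi1 had means of 9 or more. Position and level were not separated in these runs.

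Genes between the members that were not on the list read low on the same array. Of 64 such genes 12 had a HoxA9wt/Meis1 mean of 8 or more, all 12 lay below that mean on replicate 1, and 9 lay more than 0.5 below it. On other chromosomes 3251 of 5316 genes of this level lay below the mean on that array and 1226 more than 0.5 below it. Nothing is read from this comparison, since the region was chosen with that array known to be low over a stretch of chromosome 2. The 12 genes had a median of −0.66 on replicate 1, −0.01 on replicate 2 and 0.08 on replicate 3. Alkbh3, Arl14ep and Kif18a lay at −1.43, −1.39 and −1.09 on replicate 1. The 52 such genes under 8 had a median of 0.10 there. Depdc7 was low on 2 arrays, at −1.46 on replicate 1 and −1.23 on replicate 3.

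The low readings of replicate 1 ran past the members at both ends. Next to the first member, Clp1, Zdhhc5 and Med19 lay at −1.52, −0.77 and −0.40, whereas Slc43a3 lay at 0.56 and Olfr1174 at 0.02. Next to the last, Ccdc34, Nop10, Emc4, Emc7 and Arhgap11a lay at −0.69, −0.43, −1.06, −1.50 and −1.54. In blocks of up to 20 bright genes, the 44 genes from Ptprj to Lin7c had a median of −0.69 on replicate 1. Blocks 1 to 3 before them had −1.02, −1.16 and −0.79, and block 4 had −0.17. After them, blocks 1 to 8 lay between −1.16 and −0.45, block 9 had −0.24 and block 10 had 0.0033. On replicate 2 the 44 genes had a median of −0.05 and on replicate 3 of 0.01. The members are an inner piece of this longer low stretch on replicate 1. Low readings on this array guided the choice of the region, so these values describe the stretch and test nothing.

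**Figure D4:**
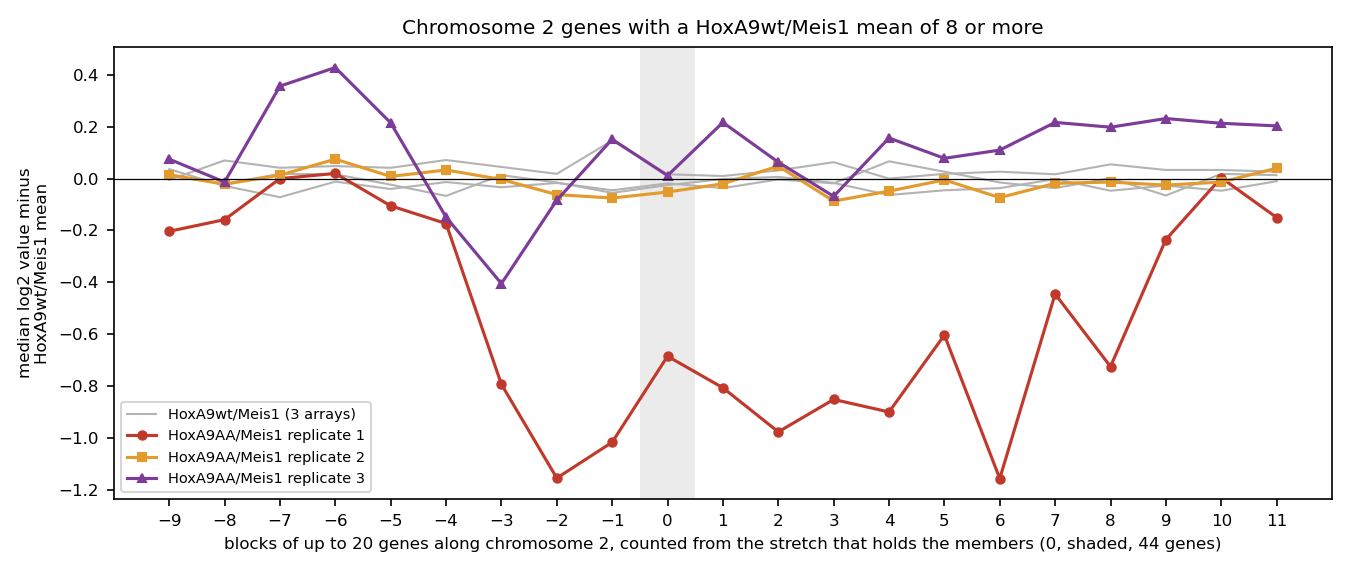
Median log2 value minus the HoxA9wt/Meis1 mean over blocks of up to 20 genes at 8 or more along chromosome 2, 1 line per array, with the stretch of the members shaded at 0 and blocks before it numbered below 0. On HoxA9AA/Meis1 replicate 1 the shaded block has −0.69, block 4 before it −0.17 and block 10 after it 0.0033.

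Start regions are shown for 4 bright members, since PU.1 and other ETS factors bind around GGAA. They are the 2 lowest and the 2 nearest to the HoxA9wt/Meis1 mean on replicate 1 among members whose start region overlaps no annotated gene, their own included. Mtch2 and Celf1, at −1.54 and −1.47, were lower than Api5 and were passed over because their start regions overlap their own annotation. The 250 bases upstream of each annotated start were taken from RefSeq (GRCm38.p6), where 48 of the 56 members had an entry. Spi1 had none, so it could not be shown, although at −0.03 it lay nearer to the mean than Ext2 at −0.06. Capitals mark GGAA, or TTCC where it lies on the other strand.
Hsd17b12, low, chr2:94157910-94158159, minus strand: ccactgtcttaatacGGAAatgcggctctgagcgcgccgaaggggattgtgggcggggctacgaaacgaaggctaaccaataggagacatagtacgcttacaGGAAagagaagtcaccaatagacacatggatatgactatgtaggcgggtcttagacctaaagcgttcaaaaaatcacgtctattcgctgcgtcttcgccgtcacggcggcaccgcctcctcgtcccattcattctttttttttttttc
Api5, low, chr2:94438187-94438436, minus strand: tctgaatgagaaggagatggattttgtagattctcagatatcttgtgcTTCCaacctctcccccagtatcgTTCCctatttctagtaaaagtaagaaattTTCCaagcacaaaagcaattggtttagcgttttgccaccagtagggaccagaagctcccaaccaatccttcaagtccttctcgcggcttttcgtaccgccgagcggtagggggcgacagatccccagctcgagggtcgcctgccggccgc
Slc35c1, near the mean, chr2:92460519-92460768, minus strand: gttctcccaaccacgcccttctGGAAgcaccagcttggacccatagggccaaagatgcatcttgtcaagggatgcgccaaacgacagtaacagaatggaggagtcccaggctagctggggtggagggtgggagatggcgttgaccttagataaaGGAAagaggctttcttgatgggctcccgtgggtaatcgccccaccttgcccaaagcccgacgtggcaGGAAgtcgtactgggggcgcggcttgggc
Ext2, near the mean, chr2:93822569-93822818, minus strand: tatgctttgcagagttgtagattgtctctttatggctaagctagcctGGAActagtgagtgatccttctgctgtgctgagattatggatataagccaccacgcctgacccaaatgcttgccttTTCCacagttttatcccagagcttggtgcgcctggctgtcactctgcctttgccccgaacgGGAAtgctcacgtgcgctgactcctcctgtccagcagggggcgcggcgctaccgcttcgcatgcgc

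Hsd17b12 held 2 matches to GGAA on either strand, and Api5, Slc35c1 and Ext2 held 3 each. The start regions not printed of Mtch2 and Celf1 held 5 and 2. The motif is short and common. It was found in 65 of 67 start regions of members and in 93.5% of 32851 start regions of all genes. GAGGAA, a longer form favoured by PU.1, was found on either strand in 19 of the 67 and in 23.3% of all. Every GAGGAA match holds a GGAA match. A match describes the letters in the window and is neither a binding site nor a cause of a level. None of the 4 printed start regions held GAGGAA.

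Ndufs3 and Kbtbd4 are transcribed away from each other from start sites 19 bases apart, and the bases between them are printed because the genes behaved differently on replicate 1.
Between Ndufs3 and Kbtbd4, chr2:90904722-90904739, plus strand: GGAAatgtgcagtgactc
Ndufs3 lay at −1.18 and Kbtbd4 at −0.34 on replicate 1, and both were above the HoxA9wt/Meis1 mean on replicate 3, at 0.44 and 0.79. Ndufs3, the brighter gene of the pair, was the lower one relative to its HoxA9wt/Meis1 mean on replicate 1. Zfp408 and Arhgap1 start 327 bases apart and lay at −0.19 and −0.60, and Atg13 and Harbi1 start 260 bases apart and lay at −0.24 and −0.25.

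Between the groups, limma called none of the 56 members and none of the 19938 genes at an adjusted p under 0.05 (0%). At an unadjusted p under 0.05 it gave 1344 genes, of which 2.59% of all genes were lower and 4.15% higher in HoxA9AA/Meis1, and 1 member, Lin7c. The median difference over the 56 members was −0.035, with 36 lower and 20 higher, and 0.01 over all genes. Over the 32 bright members it was −0.27, with 27 lower and 5 higher. All 5759 genes of this level had a median of −0.01, with 2992 lower and 2767 higher. Both member medians rest on replicate 1. Without it they were 0.02, with 29 members higher and 27 lower, and −0.01, with 14 higher and 18 lower.

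All 3 HoxA9AA/Meis1 arrays lay below all 3 HoxA9wt/Meis1 arrays for 3 members, Api5, Cstf3 and Lin7c (4.8% of all genes), and above them for Nr1h3 (6.6%). Lin7c, a PDZ scaffold protein of cell junctions, measured 11.09, 11.12 and 11.23 in HoxA9wt/Meis1 and 10.58, 10.96 and 10.63 in HoxA9AA/Meis1. Its limma difference was −0.42 ± 0.12 (SE), with an unadjusted p of 0.0126 and an adjusted p of 0.731. Cstf3 measured 8.70, 8.73 and 8.83 against 7.69, 8.68 and 8.54, and its difference of −0.45 had an adjusted p of 0.782 by limma. Without HoxA9AA/Meis1 replicate 1 the Cstf3 difference was −0.14. Nr1h3 measured 6.15, 6.31 and 6.33 against 6.52, 6.37 and 6.35, and its difference of 0.15 had an adjusted p of 0.81 by limma. Api5 differed by −0.68 ± 0.32 (SE), with an adjusted p of 0.734 by limma. None of these differences passed.

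The fit without HoxA9AA/Meis1 replicate 1 does not use the array that guided the choice of members. With limma it called none of them (0% of all genes), and 4 had an unadjusted p under 0.05, where the background was 2.42% lower and 4.14% higher. Lower were Lin7c by −0.35, Api5 by −0.29 and Agbl2, a tubulin carboxypeptidase at 5.60 in HoxA9wt/Meis1, by −0.34. Ttc17 was higher by 0.28, at 9.07, 9.10 and 9.16 in HoxA9wt/Meis1 and 9.40 and 9.38 on the remaining HoxA9AA/Meis1 arrays. Its dimmer probe set, with a HoxA9wt/Meis1 mean of 7.79, lay at only −0.03 and 0.15 on those 2 arrays relative to that mean. The smallest adjusted p of a member was 0.697 by limma.

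The product of Spi1 acts on many myeloid genes, so a list of 30 PU.1 targets was read beside it. It was drawn from general knowledge with earlier results of these data known. Of 28 measured targets 22 were lower and 6 higher in HoxA9AA/Meis1, where 9415 of all 19938 genes were lower. Most targets were bright, with 23 at a HoxA9wt/Meis1 mean of 8 or more, and 2992 of all 5759 genes of that level were lower. The targets had a median difference of −0.46, with none called by limma. At an unadjusted p under 0.05 there were 4 lower and 2 higher, where 2.59% of all genes were lower and 4.15% higher. The mean log2 level of the list was 9.24 to 9.61 in HoxA9wt/Meis1 and 8.66, 9.36 and 8.87 in HoxA9AA/Meis1, so replicates 1 and 3 were below the HoxA9wt/Meis1 range while Spi1 was within 0.05 of its mean. Msr1, a macrophage scavenger receptor, measured 10.64, 9.58 and 9.48 against 5.99, 9.03 and 5.68. Cybb, of the phagocyte oxidase, measured 12.48, 12.28 and 12.37 against 11.15, 12.23 and 10.99. Id2, an inhibitor of basic helix-loop-helix factors, differed by −1.67 and Csf3r, the G-CSF receptor, by 0.74. The adjusted p of each of these 4 was 0.731 by limma.

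Monocyte and macrophage markers were low on the same arrays, and Csf1r and Adgre1 stand on both lists. All 7 were lower in HoxA9AA/Meis1, with none called by limma on all 6 arrays, and their mean log2 level was 10.54 to 11.10 in HoxA9wt/Meis1 and 9.31, 10.93 and 9.84 in HoxA9AA/Meis1. Granulocytic precursor markers were at 10.54 to 11.13 and at 12.02, 10.84 and 10.87, highest on replicate 1. The part of these cell types in the members' values was not tested. Markers of B cells lay between 5.98 and 6.35 over the 6 arrays, and T and NK cell markers at 5.86 to 6.25 and 5.80 to 6.14. Of the sex-linked genes, the Y-linked Eif2s3y, Uty and Kdm5d lay at −4.80, −3.79 and −2.38 on replicate 1 relative to the HoxA9wt/Meis1 mean. They read 4.73, 4.79 and 6.48 there, and the olfactory receptor median on that array was 4.89. Xist, which is expressed from an inactive X, lay at −0.46 on replicate 1. It was dim throughout, between 5.25 and 6.05 on the 6 arrays. On replicate 3 the Y-linked genes lay at −1.69, −1.22 and −0.27 and Xist at 0.34. The part of this in the members' values was not tested.

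**Figure D5:**
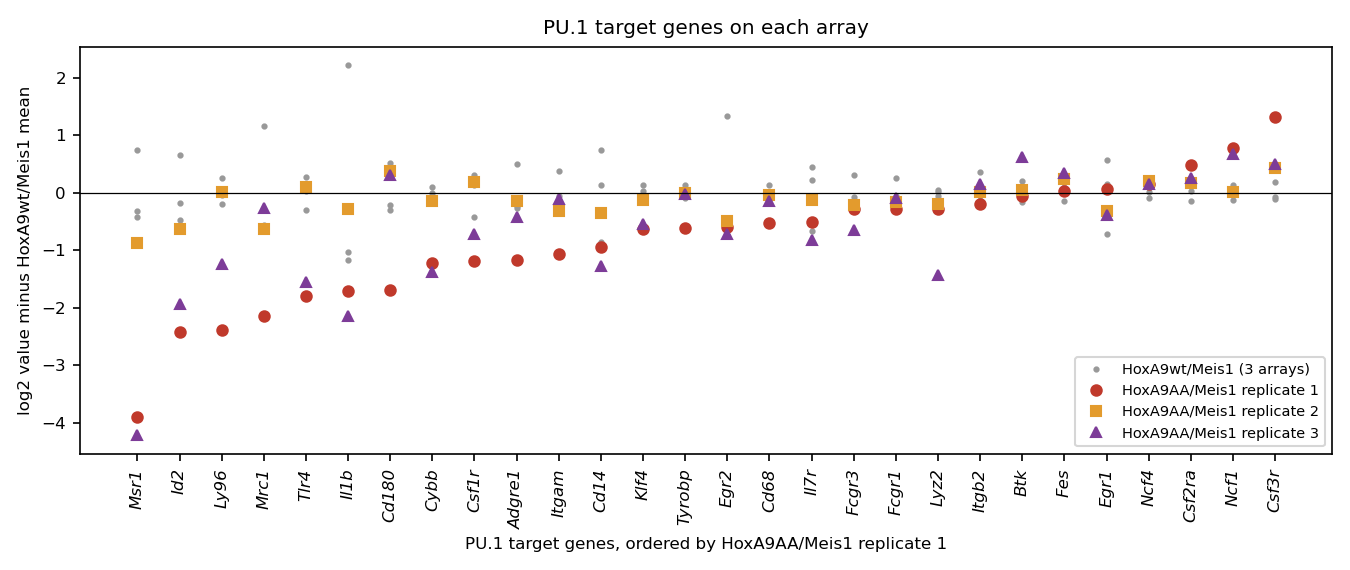
Log2 value minus the HoxA9wt/Meis1 mean of the 28 measured PU.1 targets on the 6 arrays, 1 point per mouse, ordered by HoxA9AA/Meis1 replicate 1. Msr1 lies at −3.91 and −4.22 on HoxA9AA/Meis1 replicates 1 and 3, and Csf3r, at the other end, at 1.31 on replicate 1.

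Partners, relatives and regulators of PU.1 gave a mixed list, with 7 of 18 lower and 11 higher and none called by limma. At an unadjusted p under 0.05, 3 were higher (4.15% of all genes) and none lower (2.59%). Erg, an ETS factor of stem and progenitor cells, differed by 0.94, Ets1 by 1.04 and Runx1, the core-binding factor of blood formation, by 0.73, each with an adjusted p of 0.731 by limma. Erg measured 8.42, 8.23 and 8.31 in HoxA9wt/Meis1 and 9.60, 8.74 and 9.43 in HoxA9AA/Meis1, and the groups did not overlap. They did not overlap for Runx1 and Ets1 either, and 6.6% of all genes lay wholly above in HoxA9AA/Meis1. For Ets1 they nearly touched, with 7.18 on HoxA9wt/Meis1 replicate 1 and 7.19 on HoxA9AA/Meis1 replicate 2. Gfi1, a transcriptional repressor needed for granulocyte development, differed by 0.58 with an adjusted p of 0.782 by limma. Msr1, Cybb, Erg and the monocyte marker Clec4a3 were called by limma when HoxA9AA/Meis1 replicate 2 was left out, a fit in which 48 genes were called in all. Among the HoxA9AA/Meis1 arrays, replicate 2 was nearest to the HoxA9wt/Meis1 mean for each of these genes, at −0.87, −0.15, 0.42 and 0.02. That fit thus kept only the arrays farther from the mean.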

How the data were processed

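The 6 arrays are 3 mice per group, and the labels call them biological replicates. The deposited values are log2 intensities made by the authors with oligo and RMA, per the submitters' processing notes. No version or annotation build is given in the sources used here. The annotation gave 21789 of 35556 probe sets 1 symbol, 1621 several and 12146 none, and 8 members had several probe sets. All 56 members matched a RefSeq gene table (GRCm38.p6), used for gene order.

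Group differences came from limma 3.58.1 (R 4.3.3), fitted on all 19938 genes with moderated variances and no trend, tested two-sided with Benjamini-Hochberg adjustment and checked on simulated data. Array number limits the precision. The members and lists were chosen with earlier results of these data known. Members named in full were Spi1, the lowest and highest on each HoxA9AA/Meis1 array, those nearest to 8, those whose groups did not overlap and those with an unadjusted p under 0.05. Alternatives were other thresholds, normalizations, probe set rules and left-out arrays. Same-numbered arrays of the groups deviated together with correlations of −0.21, −0.10 and −0.01, so numbers were not used as pairs.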

Additional observations from a re-analysis of the deposited data

How the results depend on the processing

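Limma called 0 members in each of 15 settings, with unadjusted counts of 1 to 9. The replicate block gave 0 members called, with 3 at an unadjusted p under 0.05, a Spi1 difference of 0.0233 and a member median of −0.035. The most came without HoxA9AA/Meis1 replicate 2, with 9 of 56 members and 2802 of 19938 genes at an unadjusted p under 0.05, and a smallest adjusted p of a member of 0.0526. That fit keeps replicate 1, which guided the choice of the members. The Spi1 difference ran from 0 to 0.045 without a HoxA9wt/Meis1 array and from 0.0083 to 0.0483 without a HoxA9AA/Meis1 array, and without HoxA9wt/Meis1 replicate 2 it was 0. The member median difference of −0.035 became −0.0553 with quantile normalization and −0.0533 with median centring. Without 1 array it ran from −0.1483 to 0.0167, the higher value without HoxA9AA/Meis1 replicate 1.

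The median of bright members on HoxA9AA/Meis1 replicate 1, −0.7233, became −0.6 at a threshold of 7, −1.0467 at 9 and −0.2867 with no threshold. It was −0.6575 with quantile normalization, −0.8117 with median centring, −0.8041 as a mean over members and −0.5944 after centring on other chromosomes, which was chosen after seeing the data. Without 1 HoxA9wt/Meis1 array it ran from −0.7875 to −0.7075. On replicate 2 the median of −0.06 became −0.0267 with no threshold and −0.0283 with median centring, and ran from −0.09 to −0.0475 without 1 HoxA9wt/Meis1 array. On replicate 3 the median of −0.005 became 0.0433 at a threshold of 7, 0.0333 with no threshold, −0.0404 with quantile normalization and −0.1028 after centring on other chromosomes. The sign on replicate 3 therefore depends on the setting. The causes of these changes were not tested.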
